A study of Mus musculus with 12 samples.

Results

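The genes described here are 10 members of the matrix metalloproteinase system in the mouse hippocampus. They comprise the 4 tissue inhibitors of metalloproteinases (*Timp1*, *Timp2*, *Timp3* and *Timp4*), the 2 gelatinases *Mmp2* and *Mmp9*, and the 4 membrane-bound proteases *Mmp14*, *Mmp15*, *Mmp17* and *Mmp24*. They were chosen by name out of 55421 genes listed in the count files, because *Mmp9* is linked to fragile X syndrome and *Timp3* is named by the study. Since the study picked *Timp3* from these same samples, its values here are not independent evidence of its direction. Hippocampal poly(A) RNA of 12 mice on a C57B/L6 background was sequenced, 3 mice in each of 4 groups. The groups were wild type with vehicle (WT-Veh), wild type with Nutlin-3 (WT-Nut3), *Fmr1* knockout with vehicle (KO-Veh) and *Fmr1* knockout with Nutlin-3 (KO-Nut3). Nutlin-3, a small molecule that blocks MDM2, was given intraperitoneally at 10 mg/kg in 5 injections that began at 2 months of age, and hippocampi were collected when the mice were 6 months old. The question of the design was which hippocampal genes differ months after a brief treatment.

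Matrix metalloproteinases are zinc endopeptidases that cut proteins of the extracellular matrix and the cell surface. They are made as inactive zymogens, and TIMP proteins block the active site once the prodomain has been removed. In the brain they act on perineuronal matrix, basement membrane and synaptic adhesion proteins, and MMP9 takes part in dendritic spine remodelling and long-term potentiation. In fragile X syndrome, MMP9 is known as a protein made in excess when FMRP, the RNA-binding product of *Fmr1*, is missing. TIMP2 has a second role, because together with MMP14 it forms the complex on the cell surface that activates proMMP2, and TIMP3 differs from the other TIMPs in binding tightly to the matrix. RNA counts report neither zymogen activation nor inhibition.

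Libraries held 21772933 to 25498894 reads in all, of which 17150820 to 20040482 fell on genes. All 10 genes passed the filter of more than 20 counts over the 12 libraries, as did 22592 of all genes, and these were tested. The deepest of the 10 was *Timp2*, with 5078 to 7319 reads per library. The shallowest were *Timp1* with 11 to 29 reads, *Mmp9* with 17 to 56 and *Mmp2* with 20 to 80, so that counting error alone is wide for these. The 17 reads of *Mmp9* in WT-Nut3 RH14, for example, have an exact Poisson 95% interval of 9.90 to 27.2 reads, which covers counting error only. Levels are given as CPM, read counts scaled to library size with TMM factors, and as RPKM where genes are compared with each other. Each pair of groups was tested on its 6 libraries with the quasi-likelihood test of edgeR, and a gene was called when its Benjamini-Hochberg adjusted *P*-value over all tested genes was under 0.05. The mice carry numbers from RH1 to RH16, which name the libraries below. In bulk tissue, fewer cells of a type and less RNA per cell cannot be told apart.

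The deleted gene checked the labels. *Fmr1* stood at 79.5, 75.3 and 77.7 CPM in WT-Veh RH2, RH5 and RH15 and at 75.2, 74.0 and 78.3 CPM in WT-Nut3 RH1, RH9 and RH14. It stood at 32.7, 32.5 and 37.3 CPM in KO-Veh RH7, RH10 and RH16 and at 30.6, 28.5 and 35.7 CPM in KO-Nut3 RH6, RH8 and RH13. Every KO library lay below every WT library, with reads remaining on the gene. The log2 fold change of KO-Veh against WT-Veh was -1.18 (SE 0.07, adjusted *P* = 1.76e-06). The labelled tissue was checked too: the dentate granule neuron markers *Prox1* and *C1ql2* had at least 1657 and 1280 reads in every library, and the CA pyramidal marker *Wfs1* at least 1427, although *Wfs1* was itself called lower in KO-Veh against WT-Veh.

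Several libraries stood apart in markers of other tissue, which bears on all results below. The 15 choroid plexus epithelium markers summed to 6691 CPM in WT-Nut3 RH9. In KO-Nut3 they reached 5178 (RH6), 672 (RH8) and 7155 (RH13) CPM, against 155 to 223 CPM in the other 8 libraries. Their most abundant gene in the 3 highest libraries was *Ttr*, the thyroid hormone carrier transthyretin, at 4215, 3091 and 4520 CPM in that order of RH9, RH6 and RH13. In the 8 libraries with the lowest sums, *Ttr* was at 3.15 to 18.2 CPM, and *Enpp2* made up most of the sum, at 113 to 164 CPM. No defining choroid plexus marker (*Ttr*, *Folr1*, *Kl*) was at 0 reads in any library. The 14 fibroblast markers summed to 353 CPM in KO-Nut3 RH8, 292 CPM in WT-Veh RH5 and 199 CPM in KO-Nut3 RH6, against 124 to 175 CPM elsewhere, with *Pdgfra*, also a marker of oligodendrocyte precursors, the most abundant in 11 of 12 libraries and *Dcn* (56.8 CPM) in KO-Veh RH10. KO-Nut3 RH6 also had 441 CPM summed over 10 thalamic neuron markers, against 146 to 208 CPM in the other 11 libraries, and 1226 CPM over 10 CA pyramidal markers, against 1744 to 2036 CPM. Blood markers summed to 91.6 CPM in KO-Nut3 RH6, against 42.4 to 69.3 CPM in the other 11 libraries. Their mean log2 CPM was 2.06 in KO-Nut3 RH6 and 1.31 in WT-Veh RH15, against -0.38 to 0.699 in the other 10. WT-Veh RH15 thus stood apart in this mean but not in the sum. All 3 KO-Nut3 libraries carried more choroid plexus marker RNA than any KO-Veh library. In KO-Nut3 against KO-Veh, 15 of the 15 choroid plexus markers were above 0 with a median log2 fold change of 4.71, and 5 were called higher (*Ttr*, *Folr1*, *Kcne2*, *Tmem72* and *Slc4a5*). Of the 14 fibroblast markers 13 were above 0, with a median of 1.37, and 1 was called higher, the growth factor gene *Igf2*. No marker of the other cell types was called in that comparison, but some lists stood mostly to one side of 0. Of 10 endothelial markers 7 were above 0 (median 0.24). The groups did not overlap for 6 of the 10, with KO-Nut3 higher, against 7.85% of all tested genes, and 6 had an unadjusted *P* under 0.05, against 7.6%. Of 10 mural cell markers 9 were above 0 (median 0.38), 4 of them without overlap and 2 with an unadjusted *P* under 0.05. The 10 ependymal markers were all above 0 (median 0.63), as were the 10 oligodendrocyte markers (0.23), the 10 thalamic markers (0.43) and the 9 tested blood markers (0.68). Mostly below 0 were the markers of microglia, with 0 of 10 above 0 (median -0.08), of CA pyramidal neurons, with 1 of 10 (-0.21), and of dentate granule neurons, with 2 of 10 (-0.12). In KO-Veh against WT-Veh, by contrast, 13 of 14 fibroblast markers (median -0.78), 9 of 10 endothelial markers (-0.18) and 9 of 10 mural markers (-0.27) were below 0, and 10 of 10 ependymal markers above 0 (0.71), none of them called. In WT-Nut3 against WT-Veh, 15 of 15 choroid plexus markers (4.57) and 10 of 10 ependymal markers (0.72) were above 0 and 13 of 14 fibroblast markers (-0.67) below, again with none called. Among these lists, KO-Nut3 against WT-Nut3 had 14 of 14 fibroblast (1.36), 15 of 15 choroid plexus (0.89) and 10 of 10 ependymal markers (0.53) above 0. KO-Nut3 against WT-Veh had 15 of 15 choroid plexus (5.46), 10 of 10 ependymal (1.24) and 12 of 14 fibroblast markers (0.54) above 0. Also above 0 there were 10 of 10 oligodendrocyte (0.35) and 10 of 10 mural markers (0.11). Oligodendrocyte markers were 10 of 10 above 0 in WT-Nut3 against WT-Veh too (0.27). Of the CA pyramidal markers 0 of 10 were above 0 in KO-Nut3 against WT-Veh (-0.23) and against WT-Nut3 (-0.19). In the interaction 13 of 14 fibroblast (2.13), 9 of 10 endothelial (0.41), 9 of 10 mural (0.43) and 11 of 15 choroid plexus markers (0.55) were above 0. For KO against WT over both treatments this held for 15 of 15 choroid plexus (0.76), 10 of 10 ependymal (0.62) and 12 of 14 fibroblast markers (0.32). None of these was called in the last 4 comparisons.

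Of the 4 TIMP genes, 3 lie inside synapsin genes on the opposite strand, and the counts used here do not separate strands. In the GRCm38 build with GENCODE M21 annotation, *Timp1* (ENSMUSG00000001131, chromosome X, 20870166 to 20874735, plus strand) lies within *Syn1*. *Timp3* (ENSMUSG00000020044, chromosome 10, 86300372 to 86349506, plus strand) lies within *Syn3*, and *Timp4* (ENSMUSG00000030317, chromosome 6, 115241892 to 115252205, minus strand) within *Syn2*. Of the exon bases of *Timp3*, 1733 of 8144 (21.3%) overlap exons of *Syn3*, and for *Timp4* 90 of 5894 (1.53%) overlap exons of *Syn2*. Reads from unspliced synapsin transcripts cannot be told apart from TIMP reads in these counts. The levels of the hosts were 527 CPM ± 31.2 for *Syn1*, 676 CPM ± 65.6 for *Syn2* and 14.05 CPM ± 1.94 for *Syn3* (mean ± SD, n = 12), and none of the 3 was called in any comparison.

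*Timp2* (ENSMUSG00000017466) is on chromosome 11 at 118301069 to 118355740. The gelatinases *Mmp2* (ENSMUSG00000031740) and *Mmp9* (ENSMUSG00000017737) are on chromosome 8 at 92827291 to 92853420 and on chromosome 2 at 164940780 to 164955850. *Mmp14* (ENSMUSG00000000957) is on chromosome 14 at 54431612 to 54445364, *Mmp15* (ENSMUSG00000031790) on chromosome 8 at 95352268 to 95375080 and *Mmp17* (ENSMUSG00000029436) on chromosome 5 at 129584169 to 129611099. *Mmp24* (ENSMUSG00000027612) is on chromosome 2 at 155775342 to 155818366, where 637 of its 4683 exon bases (13.6%) overlap *BC029722* on the other strand. The study chose *Timp3* from its differentially expressed genes in KO-Nut3 against KO-Veh and reported a significant change by qPCR. The primers of that assay are shown because they mark the part of the transcript it reads. The capital in the forward primer is its only base in exon 2, the rest lying in exon 1.
Forward: cttctgcaactccgacatcgT
Reverse: ggggcatcttactgaagcctc
On transcript Timp3-201, which has 5 exons, the forward primer covers chr10:86300955-86300974 and the base at 86338373. The reverse primer, written 5′ to 3′ and thus antisense to the transcript, covers chr10:86343940-86343960 in exon 3. Both lie in coding sequence, and together they span 131 bases of spliced RNA with introns between them.

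Compared per length over the exon bases that no other gene shares, *Timp2* was the most abundant of the 10 genes, at 85.7 RPKM ± 7.02 (SD over 12 libraries). *Mmp17*, a protease held in the membrane by a GPI anchor, followed at 37.8 RPKM ± 5.18. *Timp2* exceeded *Mmp17* in 12 of 12 libraries, with a ratio of means of 2.27, and *Mmp17* exceeded *Mmp24* in 12 of 12, with a ratio of 3.23. *Mmp24* (11.7 RPKM ± 0.694), a transmembrane protease known from neurons, and *Timp3* (11.1 RPKM ± 2.46) could not be ordered, since *Mmp24* was the higher in 6 of 12 libraries. *Timp4* followed at 5.98 RPKM ± 0.699, then *Mmp15* at 4.08 RPKM ± 1.13 and *Mmp14* at 2.57 RPKM ± 0.426. *Timp4* exceeded *Mmp15*, and *Mmp15* exceeded *Mmp14*, in 11 of 12 libraries each. At the foot of the order were *Timp1* at 1.25 RPKM ± 0.317, *Mmp2* at 0.860 RPKM ± 0.266 and *Mmp9* at 0.511 RPKM ± 0.173. *Timp1* exceeded *Mmp2* in 10 of 12 libraries and *Mmp2* exceeded *Mmp9* in 11 of 12.

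**Figure D1:**
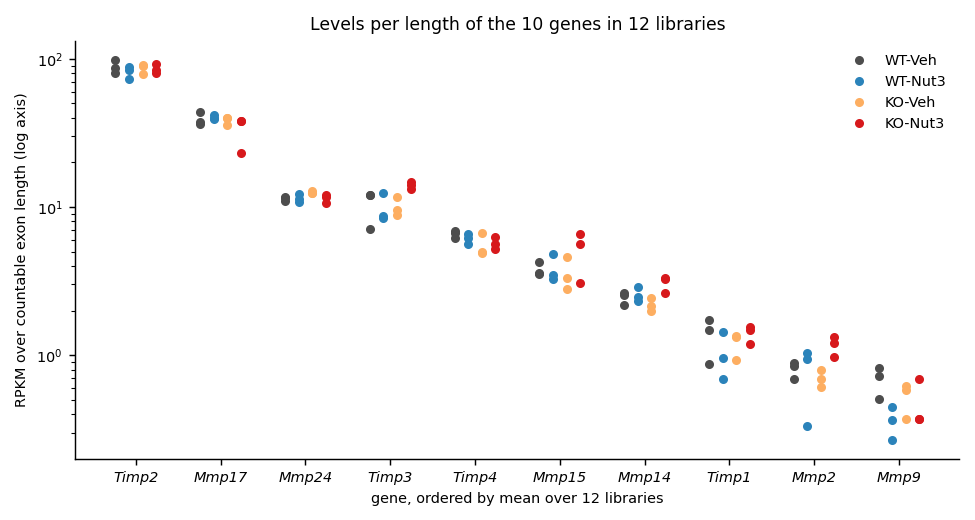
RPKM over countable exon length (log axis) of each gene in each of the 12 libraries, coloured by group, with genes ordered by their mean. *Timp2* (mean 85.7 RPKM) and *Mmp17* (37.8 RPKM) stand above the rest, and the single low *Mmp17* point is KO-Nut3 RH6.

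The inhibitor RNA exceeded the protease RNA in every library. The sum of the 4 TIMPs in RPKM divided by the sum of the 6 MMPs was 1.504 to 2.11 in 11 libraries and 2.49 in KO-Nut3 RH6. *Timp2* made up 78.8% to 85.7% of the TIMP sum. *Mmp17* made up 63.7% to 71.1% of the MMP sum in 11 libraries and 50.6% in KO-Nut3 RH6, the library with the high thalamic and low CA pyramidal markers. The spread over the 12 libraries also differed between genes, from a coefficient of variation of 5.93% for *Mmp24* and 8.18% for *Timp2* to 33.9% for *Mmp9*.

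**Figure D2:**
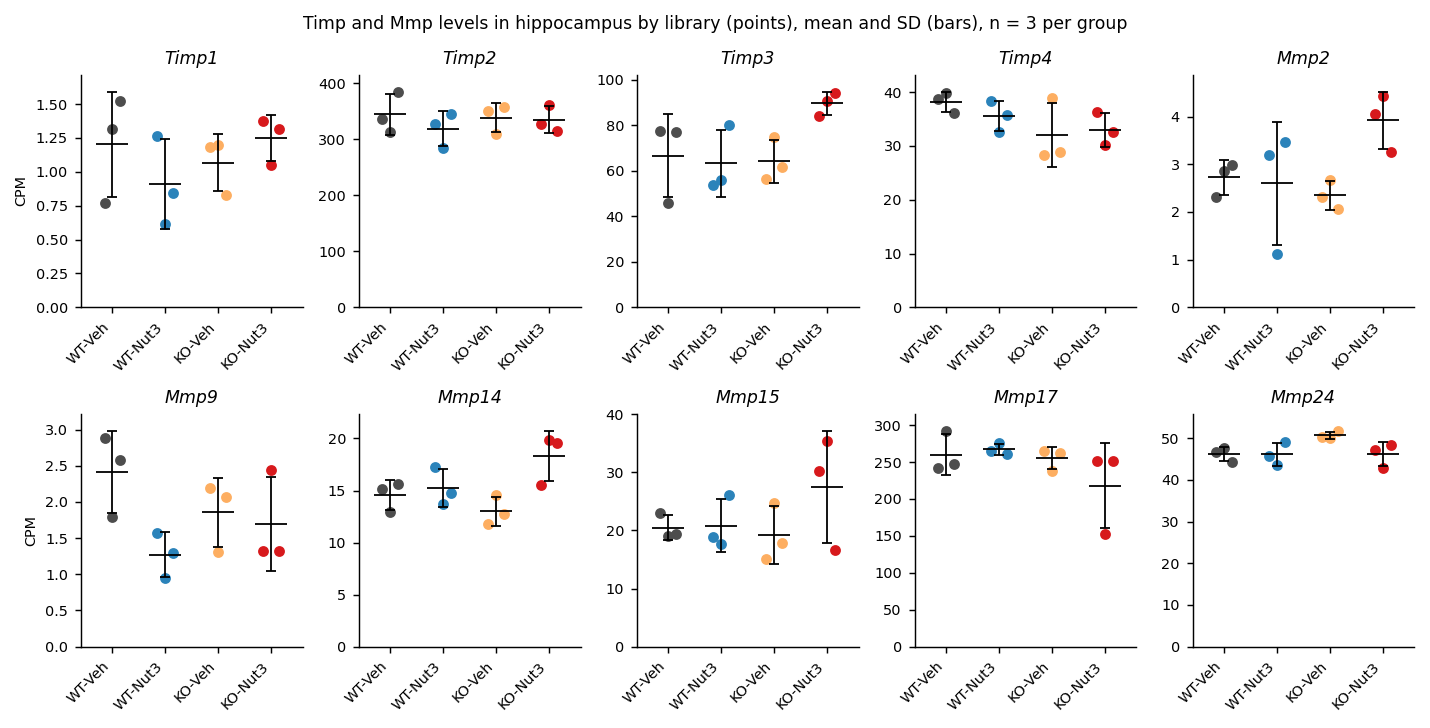
CPM (linear axis from 0) of the 10 genes by group, with 1 point per library and bars for the mean and SD (n = 3 per group). *Timp3* is at 84.2 to 94.1 CPM in the 3 KO-Nut3 libraries, and the mean of *Mmp9* is lowest in WT-Nut3 (0.953 to 1.57 CPM).

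None of the 10 genes was called in any of 7 comparisons in edgeR with the filter on low counts. In KO-Nut3 against KO-Veh, 0 of 10 were called against 0.199% (45) of all tested genes, and 3 of 10, *Timp3*, *Mmp14* and *Mmp2*, had an unadjusted *P* under 0.05 against 7.6% of all. In KO-Veh against WT-Veh the background was 0.0177% (4 genes) called and 7.2% at the unadjusted level. Of the 10 members 2 stood there, *Timp4* and *Mmp24*. This count was 0 without KO-Veh RH7, KO-Veh RH10 or WT-Veh RH15, and 3 without KO-Veh RH16. In WT-Nut3 against WT-Veh edgeR called 0.0% of genes (0, as did DESeq2), 3.17% (717) had an unadjusted *P* under 0.05, and *Mmp9* was 1 of them. In KO-Nut3 against WT-Nut3 1 gene (0.00443%) was called and 4.87% stood at the unadjusted level, among them *Timp3*. In KO-Nut3 against WT-Veh 1 gene (0.00443%) was called and 9.17% stood at the unadjusted level, among them *Timp3*, *Mmp14*, *Mmp2* and *Timp4*. These 4 members became 1 without WT-Veh RH2 or WT-Veh RH15. They became 2 in one fit of all 12 libraries and 0 when the choroid plexus score entered that fit. The interaction of genotype and treatment is the Nutlin-3 difference in KO minus that in WT. In it edgeR called 0.0% (0 genes, and DESeq2 1), and 4.17% (942) stood at the unadjusted level, among them *Timp3* and *Mmp14*. The count of members there was 0 without KO-Nut3 RH6, KO-Veh RH7, KO-Veh RH10, WT-Nut3 RH14, WT-Veh RH5 or WT-Veh RH15. Without KO-Veh RH16 it was 3. For KO against WT over both treatments 1 gene (0.00443%) was called, and 8.16% stood at the unadjusted level, among them *Timp4*. The comparisons share libraries and are not independent of each other.

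**Figure D3:**
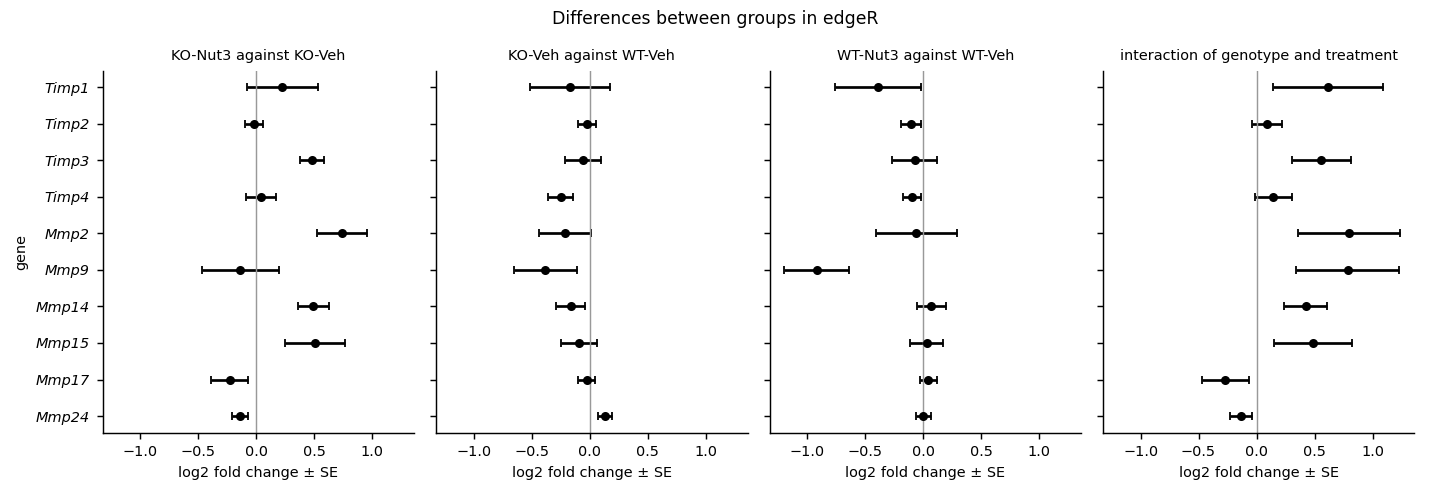
Log2 fold change and SE of the 10 genes in 4 comparisons (edgeR), with 0 marked by the grey line. In KO-Nut3 against KO-Veh, *Timp3* (0.48), *Mmp14* (0.49), *Mmp2* (0.74) and *Mmp15* (0.51) lie to the right of 0, and in WT-Nut3 against WT-Veh *Mmp9* (-0.92) lies farthest to the left.

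*Timp3*, the matrix-bound inhibitor, was at 90.7, 94.1 and 84.2 CPM in KO-Nut3 RH6, RH8 and RH13. In KO-Veh it was at 61.6, 56.4 and 74.7 CPM in RH7, RH10 and RH16. In WT-Veh RH2, RH5 and RH15 it was at 45.7, 77.0 and 77.5 CPM, and in WT-Nut3 RH1, RH9 and RH14 at 53.7, 80.2 and 56.0 CPM. WT-Veh and WT-Nut3 overlapped and each spread widely. Groups of 3 that did not overlap in KO-Nut3 against KO-Veh were found for 4 of the 10 genes, with *Timp3*, *Mmp14* and *Mmp2* higher and *Mmp24* lower, against 13.3% of all tested genes (7.85% higher and 5.44% lower). The log2 fold change of *Timp3* was 0.48 (SE 0.10, unadjusted *P* = 0.000821, adjusted *P* = 0.136). Against WT-Nut3 it was 0.50 (SE 0.14, adjusted *P* = 0.928), and against WT-Veh 0.43 (SE 0.17, adjusted *P* = 0.496), the latter falling to 0.21 when WT-Veh RH2 was left out. The interaction was 0.56 (SE 0.26, unadjusted *P* = 0.047, adjusted *P* = 0.994).

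The call on *Timp3* depended on the fit. DESeq2 on the same 6 libraries gave 0.48 with an adjusted *P* of 0.00453, and edgeR without the filter on low counts gave an adjusted *P* of 0.000241. That last setting also called 249 genes in WT-Nut3 against WT-Veh, where edgeR with the filter called 0, so its adjusted *P*-values are not on a par with the others. When the choroid plexus score (the mean log2 CPM of its markers) entered the fit of all 12 libraries, the *Timp3* value in KO-Nut3 against KO-Veh was 0.14 (SE 0.23), and with the fibroblast score added, a fit chosen after the data were seen, it was -0.18 (SE 0.21). With both scores *Timp3* was also at 0.01 (SE 0.18) against WT-Nut3, -0.11 (SE 0.20) against WT-Veh and -0.06 (SE 0.24) in the interaction. Without the 3 libraries with more than 1000 CPM of *Ttr*, also chosen after the data were seen, *Timp3* was at 0.55 (SE 0.21) in KO-Nut3 against KO-Veh. It was then at 0.78 against WT-Nut3, 0.50 against WT-Veh and 0.83 in the interaction. In that fit KO-Nut3 is represented by RH8 alone, which has the highest fibroblast marker sum of all libraries and is assumed to vary like the other groups.

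**Figure D4:**
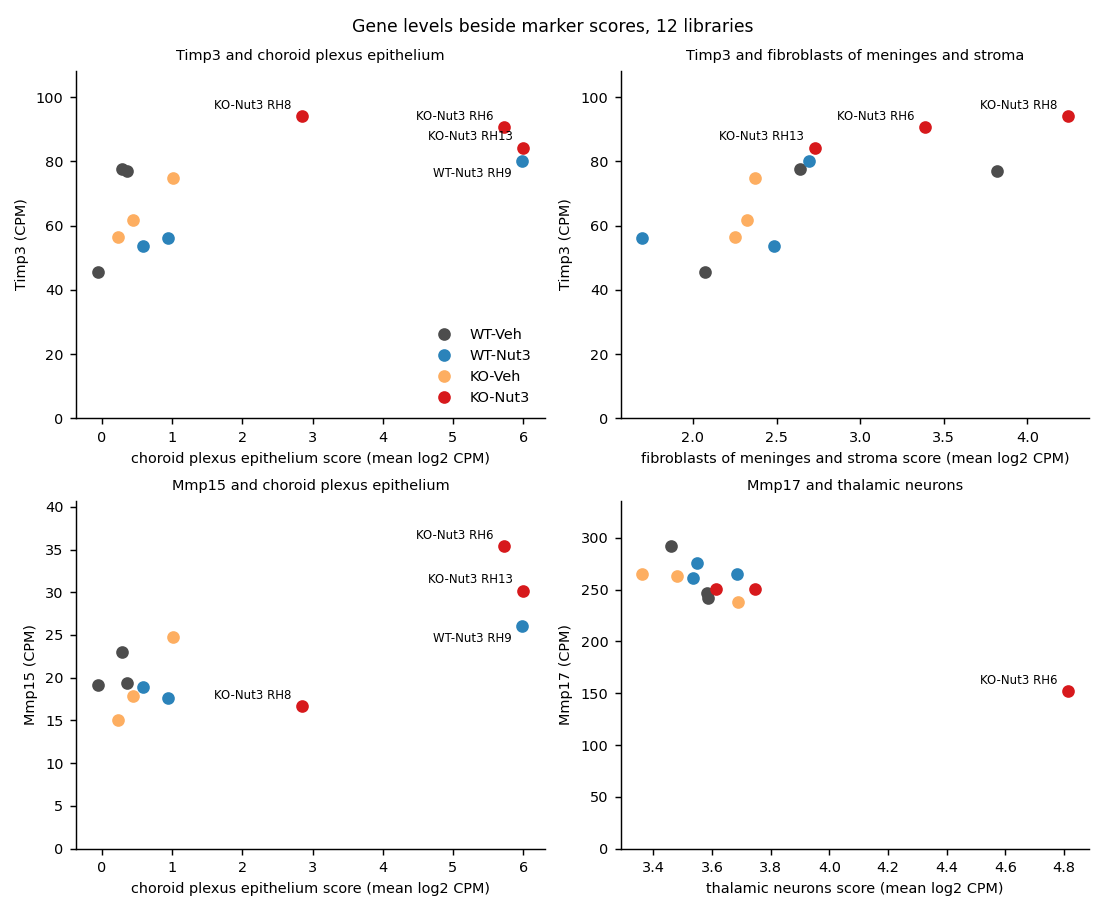
CPM of *Timp3*, *Mmp15* and *Mmp17* (vertical axes from 0) against the score of a marker list in the same library (mean log2 CPM), 12 libraries coloured by group. *Timp3* is at 80.2 to 94.1 CPM in the 4 libraries with the highest choroid plexus scores, *Mmp15* is at 26.0 to 35.4 CPM in the 3 highest but 16.7 CPM in KO-Nut3 RH8, and *Mmp17* is at 152 CPM in KO-Nut3 RH6.

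*Timp2*, the broadly expressed inhibitor, was at 344 CPM ± 36.9 in WT-Veh, 319 CPM ± 31.0 in WT-Nut3, 338 CPM ± 26.2 in KO-Veh and 334 CPM ± 24.02 in KO-Nut3 (mean ± SD, n = 3 each). All 4 groups overlapped, and it differed by -0.02 on the log2 scale between KO-Nut3 and KO-Veh (SE 0.08). With both marker scores in the fit this value was -0.28 (SE 0.13, unadjusted *P* = 0.045 in edgeR), and without the 3 libraries of high *Ttr* -0.10. *Timp1*, an inhibitor known to be induced by injury and inflammation, was at 0.617 to 1.52 CPM over all libraries, with overlap between all groups. *Timp4*, the fourth inhibitor, was at 39.8, 36.1 and 38.7 CPM in WT-Veh RH2, RH5 and RH15 and at 29.0, 28.4 and 39.0 CPM in KO-Veh RH7, RH10 and RH16. The KO-Veh libraries RH7 and RH10 were the lower ones, while RH16 lay inside the WT-Veh range. For *Timp4* the log2 fold change was -0.25 (SE 0.11, unadjusted *P* = 0.0378, adjusted *P* = 0.679). It was -0.41 without KO-Veh RH16 and -0.17 without either KO-Veh RH7 or RH10. Over both treatments KO against WT gave -0.18 (SE 0.08, unadjusted *P* = 0.0408, adjusted *P* = 0.587).

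Of the gelatinases, *Mmp9* is the one known from fragile X work. It was at 1.79, 2.57 and 2.88 CPM in WT-Veh RH2, RH5 and RH15 and at 2.06, 2.20 and 1.31 CPM in KO-Veh RH7, RH10 and RH16. The ranges overlapped, and KO-Veh RH16 was below all WT-Veh libraries. This gave a log2 fold change of -0.38 (SE 0.28, adjusted *P* = 0.805), which was -0.18 without KO-Veh RH16 and -0.23 without WT-Veh RH15. The lowest value with a single library left out was -0.55. Over both treatments KO against WT gave -0.01 (SE 0.24, adjusted *P* = 0.995), which took either sign when single libraries were left out. *Mmp9* was at 1.57, 1.29 and 0.953 CPM in WT-Nut3 RH1, RH9 and RH14, below every WT-Veh library. In that comparison it was the 1 of 10 genes whose groups did not overlap, against 7.52% of all tested genes (3.6% higher, 3.92% lower). It had a log2 fold change of -0.92 (SE 0.28, unadjusted *P* = 0.00791, adjusted *P* = 0.998), from 17 to 31 reads per WT-Nut3 library and 30 to 56 per WT-Veh library. In KO-Nut3 RH6, RH8 and RH13 it was at 2.44, 1.32 and 1.32 CPM, overlapping KO-Veh with a log2 fold change of -0.14 (SE 0.33). This value was -0.45 (SE 0.57) with both marker scores in the fit and -0.49 without the 3 libraries of high *Ttr*. The difference between the Nutlin-3 effects in KO and WT was 0.79 (SE 0.45, unadjusted *P* = 0.0996, adjusted *P* = 0.994). It was 0.45 (SE 0.63) with both marker scores in the fit and 0.43 (SE 0.56) without the 3 libraries of high *Ttr*. The 2 libraries with the highest blood marker scores, KO-Nut3 RH6 and WT-Veh RH15, were also the highest in *Mmp9* of their groups. The next in that score did not follow this order: KO-Nut3 RH13 was at 1.32 CPM of *Mmp9*, level with RH8, and KO-Veh RH16 was the lowest of KO-Veh (1.31 CPM). By summed blood markers WT-Nut3 RH14 came next after KO-Nut3 RH6, and it had the lowest *Mmp9* of all libraries (0.953 CPM). In WT-Nut3 against WT-Veh 2 of 9 blood markers were lower with unadjusted *P* under 0.05 (3.17% of all genes), and 5 were above 0. In KO-Veh against WT-Veh it was 2 of 9 again (7.2% of all genes), and 2 were above 0. The part of blood cells in *Mmp9* was not tested.

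*Mmp2*, the gelatinase that the MMP14 and TIMP2 complex activates, was at 2.06, 2.31 and 2.68 CPM in KO-Veh RH7, RH10 and RH16 and at 4.44, 3.27 and 4.06 CPM in KO-Nut3 RH6, RH8 and RH13. The KO-Nut3 libraries lay above the KO-Veh and WT-Veh libraries, the latter at 2.32 to 2.99 CPM. WT-Nut3 spread from 1.12 CPM in RH14 to 3.48 CPM in RH9. *Mmp2* had a log2 fold change of 0.74 in KO-Nut3 against KO-Veh (SE 0.21, unadjusted *P* = 0.00664, adjusted *P* = 0.345) and of 0.53 in KO-Nut3 against WT-Veh (SE 0.21, adjusted *P* = 0.504). In KO-Nut3 against WT-Veh the groups did not overlap for *Timp3* and *Mmp2*, 2 of 10 genes against 15% of all tested genes (7.92% higher, 7.09% lower). When the choroid plexus score entered the fit, the value of *Mmp2* in KO-Nut3 against KO-Veh was 0.22 (SE 0.42), and with the fibroblast score added -0.02 (SE 0.47). Without the 3 libraries of high *Ttr* it was 0.48 (SE 0.42).

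*Mmp14*, the transmembrane protease that activates proMMP2 and cleaves collagen, was at 12.7, 11.8 and 14.5 CPM in KO-Veh RH7, RH10 and RH16. It was at 19.9, 19.5 and 15.5 CPM in KO-Nut3 RH6, RH8 and RH13, above all KO-Veh libraries, though RH13 lay within the WT-Veh range of 12.9 to 15.7 CPM. WT-Nut3 was at 13.7 to 17.3 CPM. *Mmp14* differed between KO-Nut3 and KO-Veh by 0.49 on the log2 scale (SE 0.13, unadjusted *P* = 0.00421, adjusted *P* = 0.278), and the interaction was 0.43 (SE 0.19, unadjusted *P* = 0.0378, adjusted *P* = 0.994). With both scores in the fit the interaction was 0.16 (SE 0.22). The *Mmp14* value of KO-Nut3 against KO-Veh kept its sign in every fit. It was 0.57 (SE 0.19) with the choroid plexus score and 0.36 (SE 0.19, unadjusted *P* = 0.0802 in edgeR) with the fibroblast score added. Without the 3 libraries of high *Ttr*, where KO-Nut3 is RH8 alone, it was 0.59. The values of *Timp3* (-0.18, SE 0.21) and *Mmp2* (-0.02, SE 0.47) turned only with both scores, and by less than their SE. In edgeR without the filter on low counts, the setting that called 249 genes in WT-Nut3 against WT-Veh, the adjusted *P* was 0.0419. In DESeq2 it was 0.111.

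*Mmp15*, a transmembrane relative of *Mmp14*, was at 35.4 and 30.2 CPM in KO-Nut3 RH6 and RH13 but at 16.7 CPM in KO-Nut3 RH8. In KO-Veh RH7, RH10 and RH16 it was at 17.9, 15.1 and 24.8 CPM, so the groups overlapped. The remaining library with more than 1000 CPM of *Ttr*, WT-Nut3 RH9, was at 26.0 CPM, against 18.9 and 17.6 CPM in WT-Nut3 RH1 and RH14. Between KO-Nut3 and KO-Veh the log2 fold change was 0.51 (SE 0.26, adjusted *P* = 0.7), with 0.28 when KO-Nut3 RH6 was left out and 0.76 when RH8 was. It was -0.20 (SE 0.22) without the 3 libraries of high *Ttr* and -0.21 (SE 0.26) when the choroid plexus score entered the fit. The part of the choroid plexus RNA in the values of *Timp3*, *Mmp2* and *Mmp15* was not tested. The fits with the score cannot tell it apart from the treatment in KO. The choroid plexus score was 2.85 to 6.00 in KO-Nut3 and 0.24 to 1.02 in KO-Veh. In WT-Nut3 it was 5.98 in RH9, against 0.59 and 0.95 in RH1 and RH14.

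*Mmp17*, the GPI-anchored protease, was at 152 CPM in KO-Nut3 RH6 and at 238 to 292 CPM in the other 11 libraries. KO-Nut3 RH8 and RH13 were both at 251 CPM, and KO-Veh RH7, RH10 and RH16 at 263, 265 and 238 CPM. Between KO-Nut3 and KO-Veh the log2 fold change was -0.23 (SE 0.16, adjusted *P* = 0.771), and without KO-Nut3 RH6 it was -0.03 (SE 0.06), against -0.35 without RH8. Against WT-Nut3 (265, 261 and 276 CPM) the groups did not overlap for *Mmp17*, which was lower, and *Timp3*, which was higher, in 2 of 10 genes against 10.7% of all tested genes (5.3% higher, 5.35% lower). *Mmp24*, the transmembrane protease with the steadiest level of the 10, was at 51.7, 50.4 and 50.1 CPM in KO-Veh RH7, RH10 and RH16 and at 43.6 to 49.2 CPM in the WT libraries. It was at 42.9, 48.4 and 47.1 CPM in KO-Nut3 RH6, RH8 and RH13. The log2 fold changes were 0.13 (SE 0.06, unadjusted *P* = 0.0468, adjusted *P* = 0.685) for KO-Veh against WT-Veh and -0.14 (SE 0.07, unadjusted *P* = 0.0788, adjusted *P* = 0.704) for KO-Nut3 against KO-Veh, the latter -0.09 without KO-Nut3 RH6. In KO-Veh against WT-Veh it was the 1 of 10 genes without overlap, against 12.4% of all tested genes (5.9% higher, 6.46% lower), and over both treatments no gene of the 10 had KO and WT libraries without overlap, against 0.536% of all (0.177% higher, 0.359% lower).

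**Figure D5:**
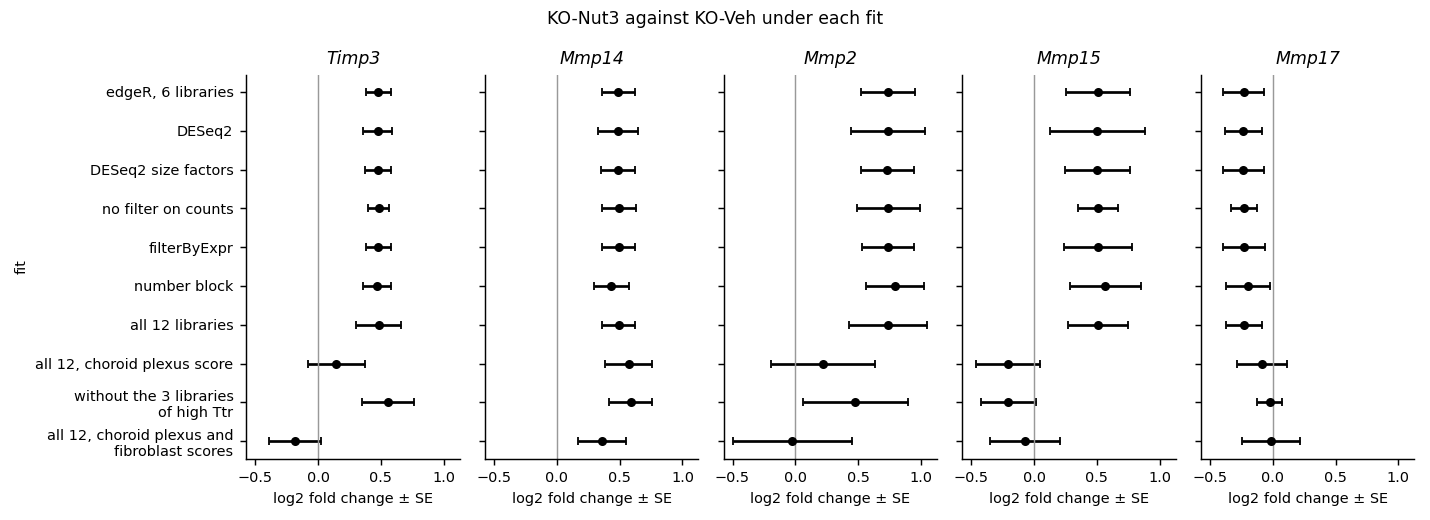
Log2 fold change and SE of KO-Nut3 against KO-Veh for 5 genes under 10 fits, with 0 marked by the grey line. *Mmp14* stays to the right of 0 (0.36 to 0.59), whereas *Timp3*, *Mmp2* and *Mmp15* cross to -0.18, -0.02 and -0.07 with both marker scores as terms.

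Of the list as a whole, 6 of the 10 genes had a log2 fold change above 0 in KO-Nut3 against KO-Veh, with a median of 0.13, against 50.8% of all tested genes and a median of 0.0034. In KO-Veh against WT-Veh 1 of 10, *Mmp24*, was above 0, against 48.9% of all, with a median of -0.13. In WT-Nut3 against WT-Veh 4 of 10 were above 0, against 50.1%, with a median of -0.07. In KO-Nut3 against WT-Nut3 7 of 10 were above 0, against 51.1%, and in KO-Nut3 against WT-Veh 5 of 10, against 52.4%. KO-Veh served both as the control of KO-Nut3 and as the group set against WT-Veh, and the other groups were reused likewise. In the interaction 8 of 10 were above 0, with a median of 0.46, against 51.3% of all, and in KO against WT over both treatments 7 of 10, against 51.9%. These counts moved with single libraries: in WT-Nut3 against WT-Veh to 6 without WT-Nut3 RH14 and 2 without WT-Nut3 RH9 or WT-Veh RH2, in KO-Veh against WT-Veh to 4 without WT-Veh RH5, 3 without WT-Veh RH15, KO-Veh RH10 or KO-Veh RH16 and 2 without WT-Veh RH2, and in KO against WT to 4 without WT-Nut3 RH14. With the choroid plexus score in the fit the count in KO-Nut3 against KO-Veh was 4, and with the fibroblast score added it was 3. In KO-Nut3 against WT-Veh it was 3 and 2 in these fits, and in KO against WT 5 and 3. The medians moved likewise, in KO-Nut3 against KO-Veh from 0.04 without KO-Veh RH7 to 0.26 without KO-Veh RH16 and to -0.04 with the choroid plexus score. That of WT-Nut3 against WT-Veh was 0.0096 without WT-Nut3 RH14, -0.17 without WT-Nut3 RH9 and -0.23 with the choroid plexus score. That of KO-Veh against WT-Veh was -0.04 without KO-Veh RH7 and -0.21 without KO-Veh RH16. That of the interaction was 0.29 with the choroid plexus score and 0.30 without KO-Nut3 RH6, and its count was 6 with both scores. The marker shifts given above ran alongside these counts, and their part in them was not tested.

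The wider protease system, whose genes are given in CPM without correction for length, was described with 5 lists of 85 genes in all, 76 of which were tested. In KO-Nut3 against KO-Veh 1 of the 76 was called (0.199% of all tested genes were), and in the other 6 comparisons none was in edgeR with the filter on low counts. DESeq2 called 5 of the 76 in KO-Nut3 against KO-Veh, where it called 245 of all 22592 genes. In KO-Nut3 against WT-Veh it called 2 of the 76 (*A2m* and *Adamts1*, named after their values were seen) and 222 of all 22592. The gene called in edgeR was *Hspg2*, which encodes perlecan, a heparan sulphate proteoglycan of basement membranes. It was at 24.6, 23.4 and 29.5 CPM in KO-Nut3 RH6, RH8 and RH13 and at 12.2, 13.4 and 16.01 CPM in KO-Veh RH7, RH10 and RH16, without overlap. Its log2 fold change was 0.90 (SE 0.13, adjusted *P* = 0.0339). WT-Veh RH5, with the second highest fibroblast marker sum, was at 25.3 CPM, and WT-Nut3 RH9, with high choroid plexus markers, at 27.8 CPM, against 15.6 to 20.7 CPM in the other WT libraries. In one fit of all 12 libraries without a marker score it was 0.90 with an adjusted *P* of 0.298. When the choroid plexus score entered that fit, the value was 0.42 (SE 0.24), and with the fibroblast score added 0.14 (SE 0.23). Without the 3 libraries of high *Ttr* it was 0.76 (SE 0.24, adjusted *P* = 0.505). The adjusted *P* was above 0.05 also without KO-Veh RH7 (0.269), KO-Veh RH10 (0.378), KO-Veh RH16 (0.0848) or KO-Nut3 RH13 (0.0692).

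Of 20 matrix and cell surface substrates, all tested, 11 were above 0 in KO-Nut3 against KO-Veh and the median was 0.02. Those with the most reads were *Sparcl1*, a matricellular glycoprotein of astrocytes, at 1455 CPM, the perineuronal lectican *Bcan* at 316 CPM and agrin (*Agrn*) at 292 CPM, with log2 fold changes of 0.06, -0.07 and -0.05. Of 20 regulators of MMP activity and clearance, 19 were tested and 0 called, while 6 had an unadjusted *P* under 0.05 and were higher, against 5.75% of all tested genes. The median over the list was 0.05. Those with the most reads were the clearance receptor *Lrp1* (657 CPM), the MMP inducer *Bsg* (377 CPM) and the serpin *Serpini1* (176 CPM). *Bsg* was at 440 and 481 CPM in KO-Nut3 RH6 and RH13 and 471 CPM in WT-Nut3 RH9, but at 344 CPM in KO-Nut3 RH8 and 334 to 367 CPM elsewhere. Its log2 fold change was 0.27 (SE 0.11, adjusted *P* = 0.603).

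Another 4 regulators were picked out after their values were seen, because DESeq2 called them in KO-Nut3 against KO-Veh. *Thbs1* and *Thbs2*, thrombospondins that bind MMPs, had log2 fold changes of 1.27 (SE 0.21, adjusted *P* = 0.0563 in edgeR) and 1.19 (SE 0.19, adjusted *P* = 0.0559). *A2m*, the broad protease inhibitor alpha-2-macroglobulin, had 1.61 (SE 0.29, adjusted *P* = 0.0723), and *Cldn1*, a tight junction protein, 2.78 (SE 0.60, adjusted *P* = 0.145). *Cldn1* was at 12.4 and 12.96 CPM in KO-Nut3 RH6 and RH13 and 12.6 CPM in WT-Nut3 RH9, against 0.785 to 3.25 CPM in all others. *A2m* was at 13.6, 10.4 and 9.84 CPM in the same 3 libraries and at 5.73 CPM in KO-Nut3 RH8, against 2.59 to 3.59 CPM in the other 8. *Thbs2* was highest in KO-Nut3 RH6 (9.37 CPM), KO-Nut3 RH8 (8.31 CPM) and WT-Veh RH5 (8.04 CPM), the 3 libraries with the highest fibroblast marker sums. *Thbs1* was at 6.13 to 6.66 CPM in KO-Nut3 and 2.20 to 3.41 CPM in KO-Veh, and WT-Veh RH15 alone was at 24.7 CPM.

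Among 17 other MMPs, 10 were tested and 0 called in KO-Nut3 against KO-Veh, with a median of 0.11. *Mmp16*, a transmembrane MMP of neurons and glia, led at 35.4 CPM, with a log2 fold change of -0.01 (SE 0.08), followed by *Mmp28* at 2.90 CPM and *Mmp23* at 1.72 CPM. *Mmp1a*, *Mmp1b*, *Mmp7*, *Mmp10* and *Mmp20* had 0 reads in all 12 libraries, and *Mmp3*, stromelysin, had 4 reads in all. Of 19 ADAMTS proteases, which cut lecticans among other matrix proteins, all were tested and 0 called, with a median of 0.14. *Adamts20* (32.9 CPM), *Adamts10* (31.6 CPM) and *Adamts4* (29.1 CPM) had the most reads. Of 9 ADAM sheddases 8 were tested and 0 called, with a median of -0.10, and *Adam10*, the alpha-secretase, led at 91.2 CPM, followed by *Adam15* at 82.0 CPM and *Adam9* at 58.8 CPM.

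Among the genes most like *Timp3* over the 12 libraries, by Pearson's r of log2 CPM among genes with a mean of at least 5 CPM, were *Id1* (0.973), *Tinagl1* (0.960), *Cavin2* (0.952) and *Fmo1* (0.922). Those most like *Mmp14* were *Tln1* (0.925), *Usp6nl* (0.920), *Anxa5* (0.918), *Ddx58* (0.912) and *H2-K1* (0.908). Among the 10 genes, *Timp3* and *Mmp14* had an r of 0.673, *Timp3* and *Mmp15* 0.572, and *Timp3* and *Mmp2* 0.524. The highest r of any pair was 0.765, for *Timp2* and *Mmp9*, and the lowest were with *Mmp17*, at -0.698 for *Mmp15*, -0.629 for *Mmp14* and -0.604 for *Timp3*. These are descriptions over 12 libraries that share the tissue differences given above.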

How the data were processed

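Hippocampal poly(A) RNA-seq libraries of 12 mice, 3 per group, were analysed. According to the methods and the submitters' processing notes, the authors mapped the reads to mm10 with STAR and deposited raw counts per gene without normalization, of which the unstranded column was used. STAR's version is not given in the sources used here. The labels give single reads and the methods paired-end reads, and which applies was not settled. Groups were taken from the sample labels. A count table of the whole series, with 12 columns that name a group but no animal, and the 24 strand-specific columns of the single libraries were not used.

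Genes with more than 20 counts over 12 libraries were tested in edgeR 4.0.16 (R 4.3.3) with TMM factors, two-sided, on the 6 libraries of a pair of groups, or on 12 for the interaction and for KO against WT. Adjusted *P*-values (Benjamini-Hochberg) under 0.05 counted as called. The SE is the size of a log2 fold change divided by the square root of *F*. RPKM used exon bases not shared with other genes. Alternatives were DESeq2 1.42.0 (the tool named in the study's methods), its size factors, the low-count filter, other sets of libraries, an animal number block (up to RH8, from RH9) and marker scores. The members, gene lists and tests were chosen with earlier results of these data known. Named by rule are the 10 members, *Fmr1*, called genes of each pathway list, its 3 most abundant genes, the most abundant and the 3 defining genes of a marker list, and the 5 genes most like *Timp3* and *Mmp14*. Other genes, such as overlapping genes, called markers and list genes with few or no reads, were named after their values were seen. One gene that this rule names is not reported here. The tests were also run on simulated counts, the outcome of which is not given here. The replicates are separate mice, and whether the sequenced mice carried a *Nestin*-GFP reporter is not given in the sources used here.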

Additional observations from a re-analysis of the deposited data

How the results depend on the processing

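No member was called when any single library was left out. In KO-Nut3 against KO-Veh, DESeq2 called 1 member (*Timp3*) and edgeR without the low-count filter 2 (*Timp3*, *Mmp14*), and in the interaction that setting called 1 (*Timp3*). The count of all called genes moved more, and the causes were not tested. In KO-Nut3 against KO-Veh (45 as reported) it was 245 with DESeq2, 544 without the filter, 20 with the number block, 0 with all 12 libraries in one fit, with the choroid plexus score or with both scores, and 16 without the 3 libraries of high *Ttr*. In KO-Veh against WT-Veh (4) it was 22 with DESeq2, 272 without the filter, 21 with the number block, and 1 with all 12 libraries, with the choroid plexus score or without the 3 libraries. In WT-Nut3 against WT-Veh (0) it was 249 without the filter, 11 with the number block and 4 with both scores. In KO-Nut3 against WT-Nut3 (1) it was 7 with DESeq2, 38 without the filter, 2 with the choroid plexus score and 12 without the 3 libraries. In KO-Nut3 against WT-Veh (1) it was 222 with DESeq2, 416 without the filter, 3 with the number block or with both scores, 2 with all 12 libraries and 16 without the 3 libraries. In the interaction (0) it was 1 with DESeq2 or the choroid plexus score and 291 without the filter. In KO against WT (1) it was 43 with DESeq2, 239 without the filter, 10 with the number block, 6 with both scores and 5 without the 3 libraries. Leaving out each library in turn gave 6 to 266 genes in KO-Nut3 against KO-Veh, 2 to 11 in KO-Veh against WT-Veh, 0 to 1 in WT-Nut3 against WT-Veh, 0 to 7 in KO-Nut3 against WT-Nut3, 1 to 197 in KO-Nut3 against WT-Veh, 0 to 1 in the interaction and 1 to 10 in KO against WT. Of the wider list genes, edgeR without the filter called 8 of 80 in KO-Nut3 against KO-Veh, where 544 of all 35930 genes were called. In KO-Veh against WT-Veh it called 7 of 80 (272 of 35930), and in WT-Nut3 against WT-Veh 8 (249). The setting called 4 in KO-Nut3 against WT-Veh (416), 0 in KO-Nut3 against WT-Nut3 (38), 8 in the interaction (291) and 2 in KO against WT (239). The fits with both scores and without the 3 libraries were chosen after seeing the data.

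Among the differences looked at here, signs turned for *Timp3* (-0.18), *Mmp2* (-0.0235) and *Mmp15* (-0.0733) in KO-Nut3 against KO-Veh with both scores, and for *Mmp15* also with the choroid plexus score (-0.21) and without the 3 libraries (-0.20). In KO-Nut3 against WT-Veh they turned for *Timp3* (-0.11) and *Mmp2* (-0.17) with both scores and for *Mmp2* with the choroid plexus score (-0.0396). *Mmp15* turned there from 0.42 to -0.37 with the choroid plexus score and to -0.295 with both scores or without the 3 libraries. Without those libraries *Mmp15* also turned in KO-Nut3 against WT-Nut3 (0.39 to -0.13) and in the interaction (0.49 to -0.04). The *Timp3* interaction was -0.061 with both scores. *Mmp9* in KO against WT ranged from -0.21 to 0.12 over left-out libraries. *Fmr1* in KO-Nut3 against WT-Nut3 had an adjusted *P* of 0.0991 in edgeR without WT-Nut3 RH14. No paired analysis was possible because the groups share no animal numbers. Depth limits *Timp1*, *Mmp2* and *Mmp9* most.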

Other observations

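The genes most like *Mmp17* over the 12 libraries, picked out after the values were seen, were *Chrm1* (Pearson's r 0.989), *Rasgrp1* (0.985), *Psd* (0.984), *Nell2* (0.983) and *Hpca* (0.982), among genes with a mean of at least 5 CPM. Those most like *Mmp24* were *Prkci* (0.955) and *Ddi2* (0.940). These are descriptions over 12 libraries, and KO-Nut3 RH6, low in *Mmp17* and in CA pyramidal markers, is 1 of them.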
